A study of Mus musculus with 6 samples.

Results

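Nonmuscle myosin II and the kinases that phosphorylate its light chains were examined in cardiomyocyte (CM) nuclei of hearts that overexpressed (OE) a hyperactive YAP. The set holds 10 genes, which were taken by name as the subunits of this motor and its main kinases. They matched 11 of the 54532 rows of the count table through the GENCODE M21 annotation, because *Myl12b* has a pair of gene models there. All 10 genes were among the 13323 genes that passed the filter on low counts (a median log2 CPM over 1 in at least 1 group). Of these, 9 passed it in every group and *Myl12b* passed in YAP6SA and YAP5SA but not in GFP, and the second model of *Myl12b* had 0 counts in every library.

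All mice were wildtype ICR animals that received a subcutaneous dose of AAV9 (1e+11 viral genomes) on postnatal day 6. The virus encoded GFP in the control group and YAP6SA or YAP5SA in the others, each behind the cardiac troponin T (cTnT) promoter, which is active in CMs. Hearts were taken on day 9, nuclei were pulled down with an antibody to PCM-1, a protein of CM nuclei, and poly-A nuclear RNA was sequenced without strand information. YAP5SA lacks the serines through which the LATS kinases of the Hippo pathway inactivate YAP, and YAP6SA has a further serine-to-alanine change that weakens its binding to the TEAD transcription factors. Each of the 3 groups had 2 libraries, 1 in each of 2 batches, so p-values rest on the spread between these 6 libraries.

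A nonmuscle myosin II molecule is a hexamer of a pair of heavy chains, a pair of regulatory light chains and a pair of essential light chains. The heavy chains NMIIA, NMIIB and NMIIC are encoded by *Myh9*, *Myh10* and *Myh14*. The motor pulls on actin filaments in the cell cortex, in stress fibers and in the contractile ring that divides a cell. It assembles and contracts when its regulatory light chain is phosphorylated, by myosin light chain kinase with calcium and calmodulin or by the kinases ROCK1 and ROCK2, and it relaxes when the myosin phosphatase removes the phosphate. Postnatal CMs are filled with the sarcomeric myosins instead, and NMIIB is known for its part in their cytokinesis during development. Genes of the actin cytoskeleton are often controlled by the factor SRF through a promoter element called the CArG box.

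The promoters of 9 of the 10 genes were matched in RefSeq (GRCm38.p6), as 10 windows from 250 bases before to 50 bases after an annotated start, and none was matched for *Rock1*. A CArG box lay in the window of *Myl9*, with its first base at -161 from the RefSeq start, and in the second window of *Myl6*, at -50. Over all promoters, 1.63% of 32841 windows of the same length held one. The core TEAD motif, CATTCC or its reverse complement GGAATG, lay in the windows of *Myh10* at -7, *Myl12a* at 28 and *Mylk* at -158, and 14.7% of all windows held it. The RefSeq starts of *Myh10*, *Myl12a* and *Mylk* lie within the genes as GENCODE draws them. That of *Mylk* is at 34784950, far inside from its GENCODE start at 34745210. A match is a description of the letters and not a binding site. The promoters of *Myl9* and *Myl6* are shown because they hold the CArG box, which is in capitals, and that of *Myh9* because it holds neither motif. They lie on chr2:156775214-156775419 (plus strand), chr10:128493040-128493069 (minus strand, a short stretch around the box) and chr15:77842176-77842425 (minus strand). Each is upstream of its RefSeq start, although that start of *Myl6* lies within the gene as GENCODE draws it.

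Myl9: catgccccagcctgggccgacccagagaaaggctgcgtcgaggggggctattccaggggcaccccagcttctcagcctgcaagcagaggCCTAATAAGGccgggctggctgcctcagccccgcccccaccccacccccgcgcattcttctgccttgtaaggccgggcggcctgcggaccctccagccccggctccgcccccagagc

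Myl6: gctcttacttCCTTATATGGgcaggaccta

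Myh9: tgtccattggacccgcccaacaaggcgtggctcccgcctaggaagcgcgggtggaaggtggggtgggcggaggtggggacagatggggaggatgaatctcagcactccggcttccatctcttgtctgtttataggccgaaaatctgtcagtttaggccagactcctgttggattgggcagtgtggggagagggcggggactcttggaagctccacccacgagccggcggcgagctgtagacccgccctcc

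The reads on genes numbered 14552847 to 19615627 per library, so that a row with 0 counts could have had up to 3 counts, or 0.153 to 0.199 CPM (counts scaled to the library size, here with TMM factors), where only counting error is covered. Markers of CMs were abundant in all libraries, with sums of 30348 to 66514 CPM over 8 genes, and the sums were lowest in the YAP5SA libraries, at 41607 and 30348 CPM. *Yap1* itself was not past the threshold in YAP6SA (log2 fold change -0.09, edgeR quasi-likelihood FDR 0.952) or YAP5SA OE CMs (-0.17, FDR 0.495), and the part of cassette reads in its counts was not tested. The first principal component, with 66.0% of the variance, set the YAP5SA libraries apart from the other 4. In bulk nuclei, fewer cells of a type and less RNA per cell cannot be told apart.

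**Figure D1:**
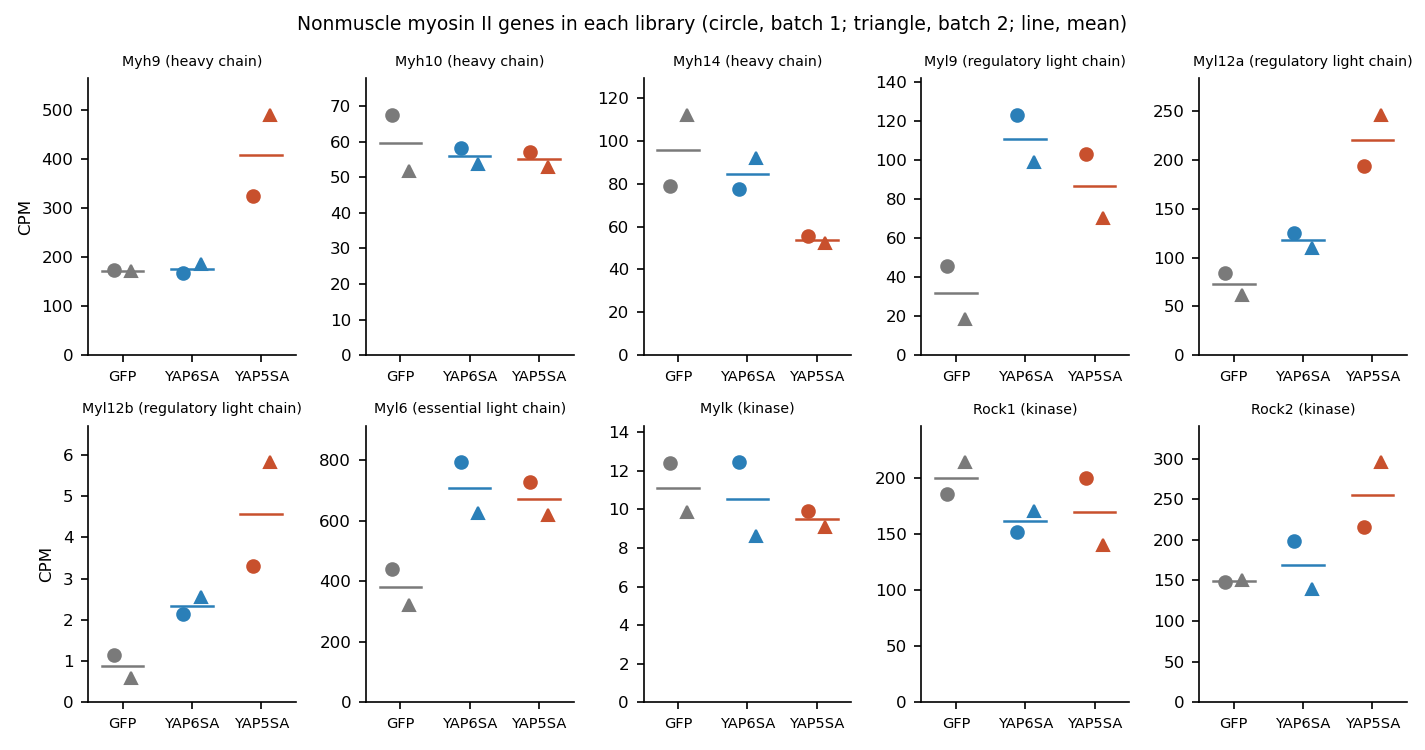
Level of each of the 10 genes in CPM (linear axes from 0) in the GFP, YAP6SA and YAP5SA libraries; circles are batch 1, triangles batch 2 and lines the mean of 2 libraries. *Myh9* stands apart in YAP5SA only, at 326 and 491 CPM, whereas *Myl9* and *Myl6* are above GFP in both variants.

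In GFP hearts, the genes of the set ran over a wide span of levels, although several neighbors in level overlapped, as the plot of levels by library shows. Per kilobase of exon, *Myl6*, which encodes the essential light chain, was highest at 120 ± 26.7 CPM (SD, n = 2). The regulatory light chain genes *Myl9* (27.6 ± 16.6 CPM per kb) and *Myl12a* (21.7 ± 4.75 CPM per kb) followed, and the ranges of this pair overlapped. Next came *Myh9* at 13.3 ± 0.09 and *Myh14* at 13.1 ± 3.25 CPM per kb, whose ranges also overlapped, and *Rock1* (11.0 ± 1.12) and *Rock2* (10.7 ± 0.17), whose ranges overlapped each other and that of *Myh14*. *Myh10* was lower, at 5.72 ± 1.06 CPM per kb. *Mylk* (0.99 ± 0.16) and *Myl12b* (0.31 ± 0.15 CPM per kb) were at the bottom, each below its neighbor in both libraries.

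The first comparison asked how YAP6SA, which binds TEAD poorly, changed the motor. In YAP6SA OE CMs, 1 of the 10 genes was past the threshold of FDR 0.05 (edgeR quasi-likelihood test, adjusted over all 13323 genes), and it was *Myl9*, which was higher. Over all genes tested, 0.0450% were called, all of them higher. The median log2 fold change was 0.11 over the 10 genes and 0.00 over all genes tested. Over the 9 genes that passed the filter in every group it was 0.03, and over all such genes -0.003. By the unadjusted p, 4 of the 10 genes were under 0.05, against 5.93% of all genes. These were the 4 light chain genes, and no heavy chain or kinase was among them. *Myl12b*, 1 of these 4, entered the fit only through the variants, where it was high.

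*Myl9* (ENSMUSG00000067818, chromosome 2 of GRCm38, 156775420 to 156781658, plus strand) encodes a regulatory light chain that is abundant in smooth muscle. In GFP its level was 45.7 CPM in batch 1 and 18.5 CPM in batch 2, against 123 and 98.8 CPM in YAP6SA and 103 and 70.2 CPM in YAP5SA. Both variants were above GFP in each batch, and the GFP libraries differed from each other by more than those of the other groups in proportion. Against GFP, the log2 fold change in YAP6SA OE CMs was 1.89 (SE 0.22, edgeR quasi-likelihood FDR 0.0250), or 1.43 in batch 1 and 2.42 in batch 2. Without GFP replicate 2, the low library, it was 1.49 and no longer past the threshold (FDR 0.0527), and without the term for batch it was 1.79 (FDR 0.981). It was called in 8 of 9 other fits, with FDR from 2.03e-19 to 0.981.

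Markers of smooth muscle moved with *Myl9* in part. The sum over 7 such genes was 1276 and 1278 CPM in GFP, 2474 and 2441 CPM in YAP6SA, and 2549 and 1863 CPM in YAP5SA. *Acta2*, the smooth muscle actin gene, made up the difference, at 272 and 142 CPM in GFP against 1559 and 1256 CPM in YAP6SA. The sum over the other 6 was 1004 and 1136 CPM in GFP and 915 and 1185 CPM in YAP6SA. *Smtn* made most of that sum, at 914 and 1081 CPM in GFP and 852 and 1135 CPM in YAP6SA, so the sum says little about the rest. *Acta2* was the 1 of 5 markers tested that was called in YAP6SA. The defining smooth muscle heavy chain *Myh11* was at 14.2 and 6.07 CPM in GFP and 14.0 and 7.09 CPM in YAP6SA, and *Tagln*, which did not pass the filter, had 5 and 1 counts in GFP and 16 and 5 in YAP6SA. *Cnn1*, the calponin gene, was at 1.84 and 0.72 CPM in GFP and 4.43 and 1.52 CPM in YAP6SA (log2 fold change 1.18, edgeR quasi-likelihood unadjusted p 0.0359, FDR 0.804). *Myh11* overlapped between GFP and YAP6SA, and it was lower in batch 2 of each group, as *Myl9* was. None of the 7 markers was at 0 in all libraries, and the part of smooth muscle RNA in the *Myl9* values was not tested.

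The other regulatory light chain genes encode the forms found in most cells. *Myl12a* was at 84.2 and 61.6 CPM in GFP, 126 and 110 CPM in YAP6SA, and 194 and 247 CPM in YAP5SA. The 3 groups did not overlap. In YAP6SA OE CMs its log2 fold change of 0.70 (SE 0.19) was not past the threshold in the 6-library fit (FDR 0.504). It was called in 2 of 9 other fits, with FDR from 0.0018 to 0.998. The lowest was in the fit of the 4 libraries compared, which has few degrees of freedom. *Myl12b* was near the limit of the data in GFP, with 22 and 9 counts, and had 42 counts in each YAP6SA library and 50 and 104 in the YAP5SA libraries. Its groups were also apart, and its log2 fold change of 1.37 in YAP6SA OE CMs (SE 0.56) was not past the threshold (FDR 0.804).

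Counting limits bear on this pair, which are neighbors on chromosome 17 (GRCm38, minus strand, *Myl12a* 70993656 to 71002878 and *Myl12b* 70973133 to 70990890). The second *Myl12b* model spans both, and all 1201 of its exon bases overlap them, 462 in *Myl12a* and 739 in *Myl12b*. Reads that overlap more than 1 gene were left out, so reads on those bases are in none of the 3 rows. *Myl12a* also overlaps 207 exon bases of *Myom1*, an abundant sarcomere gene on the other strand. With the counts of *Myl12a* and *Myl12b* summed, the log2 fold changes were 0.71 for YAP6SA (FDR 0.504) and 1.62 for YAP5SA (FDR 0.000815) against GFP.

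*Myl6* (ENSMUSG00000090841, chromosome 10, 128490860 to 128494145, minus strand) encodes the essential light chain, which stabilizes the neck of the heavy chain. It was at 442 and 321 CPM in GFP, 795 and 625 CPM in YAP6SA, and 727 and 619 CPM in YAP5SA. Both variants lay above both GFP libraries, and overlapped each other. The log2 fold change in YAP6SA OE CMs was 0.90 (SE 0.17), which the 6-library edgeR quasi-likelihood fit did not call (FDR 0.224). It was called in 4 of 9 other fits, with FDR from 5.26e-05 to 0.998. In the fit of the 4 libraries compared, the log2 fold change was 0.91 (FDR 9.42e-05). That fit has few degrees of freedom, and it called 276 of all 13323 genes. Past the threshold in it were 3 genes of the set, *Myl9*, *Myl12a* and *Myl6*. Leaving out either YAP5SA library gave the same 3 genes.

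The heavy chains did not differ between GFP and YAP6SA by more than their spread. *Myh9* (ENSMUSG00000022443, chromosome 15, 77760587 to 77842175, minus strand), the heavy chain of NMIIA, was at 173 and 171 CPM in GFP, 168 and 185 CPM in YAP6SA, and 326 and 491 CPM in YAP5SA. The GFP and YAP6SA libraries were interleaved, and both YAP5SA libraries were far above them. For YAP6SA against GFP the log2 fold change was 0.03, with a 95% interval of -0.37 to 0.43. Intervals of the other heavy chains also held 0, from -0.43 to 0.26 for *Myh10* and from -0.54 to 0.21 for *Myh14*.

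Among the kinases, none was past the threshold in YAP6SA OE CMs. *Rock1* was at 186 and 214 CPM in GFP, 152 and 170 CPM in YAP6SA, and 200 and 140 CPM in YAP5SA. Both YAP6SA libraries lay below both GFP libraries, and its log2 fold change was -0.31 (FDR 0.878). By this count of libraries that do not overlap, 4 of the 10 genes were higher in YAP6SA (the 4 light chain genes), against 17.3% of all genes. Of these 4, *Myl12b* did not pass the filter in GFP. Lower by this count was 1 gene (*Rock1*), against 17.0% of all genes. *Rock2* was at 148 and 151 CPM in GFP, 199 and 139 CPM in YAP6SA, and 215 and 296 CPM in YAP5SA. Its GFP and YAP6SA libraries overlapped, with a log2 fold change of 0.18 (interval -0.29 to 0.65). *Mylk*, which encodes several products that gene counts cannot separate, was at 8.61 to 12.5 CPM over all 6 libraries with every group overlapping every other. Its exons overlap a gene on the other strand, *E130310I04Rik*, by 548 bases, and without strand their reads cannot be told apart.

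**Figure D2:**
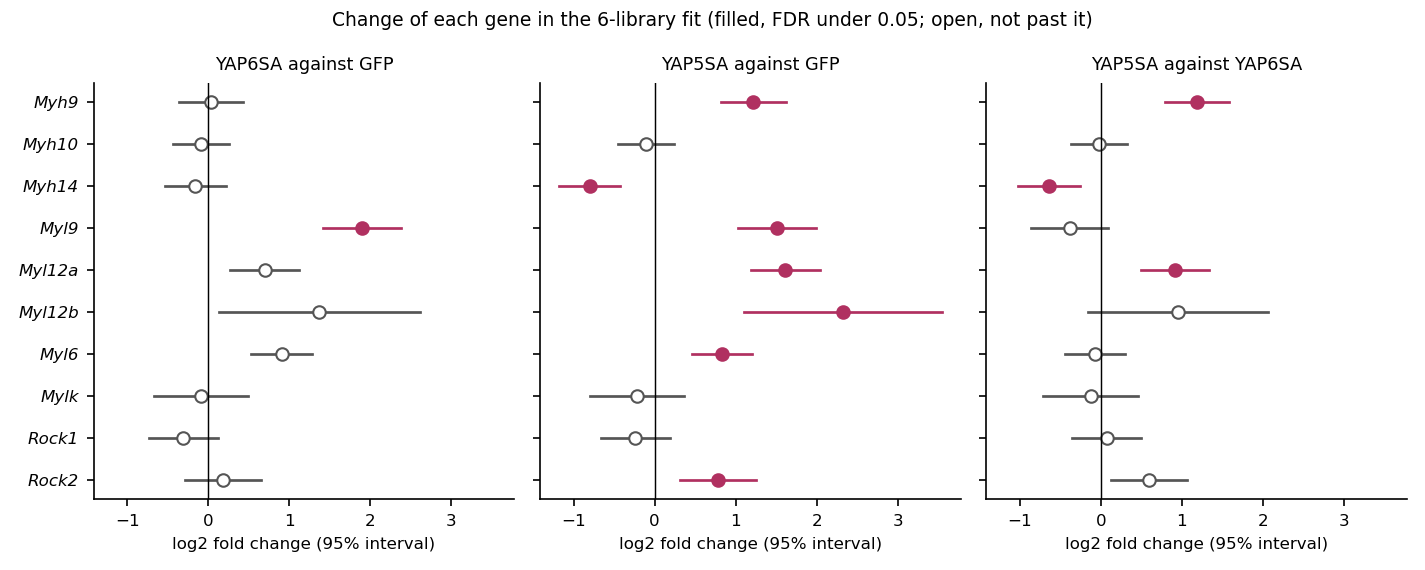
Log2 fold change of each gene (horizontal axis) in the 3 comparisons of the 6-library edgeR fit, with 95% intervals as bars; filled points are past FDR 0.05. In YAP6SA 1 gene is filled (*Myl9*), in YAP5SA against GFP 7 are, and between the variants 3 are (*Myh9*, *Myh14* and *Myl12a*).

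The second comparison set YAP5SA, which binds TEAD, against GFP. Of the 10 genes, 6 were higher and 1 was lower in YAP5SA OE CMs (edgeR quasi-likelihood FDR under 0.05), whereas 12.8% of all genes tested were higher and 9.18% were lower. The median log2 fold change was 0.81 over the 10 genes and 0.00 over all genes tested. The higher genes were 1 of the 3 heavy chains, all 3 regulatory light chains, the essential light chain and 1 of the 3 kinases. *Myl12b* is among the higher genes but entered the fit only through the variants, where it was high, and over the 9 genes that passed the filter in every group 5 were higher and 1 was lower. By the unadjusted p, 7 of the 10 were under 0.05, against 36.4% of all genes. By libraries that do not overlap, the same 6 genes were higher, against 31.2% of all genes, and the same 1 was lower, against 29.7%.

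*Myh9* rose in YAP5SA OE CMs by 1.22 on the log2 scale (SE 0.18, edgeR quasi-likelihood FDR 0.0020), and the difference was 0.91 within batch 1 and 1.52 within batch 2. *Myh14* (ENSMUSG00000030739, chromosome 7, 44605803 to 44670843, minus strand), the heavy chain of NMIIC, fell. Its level was 78.9 and 112 CPM in GFP, 77.4 and 92.1 CPM in YAP6SA, and 55.6 and 52.4 CPM in YAP5SA, below all 4 other libraries. Relative to GFP its log2 fold change was -0.80 (SE 0.17, FDR 0.0105). *Myh10*, the heavy chain of NMIIB, was at 67.7 and 51.9 CPM in GFP, 58.1 and 53.8 CPM in YAP6SA, and 57.2 and 53.0 CPM in YAP5SA. Its 3 groups overlapped, and the interval of its log2 fold change in YAP5SA OE CMs was -0.46 to 0.24.

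The light chains *Myl9*, *Myl12a* and *Myl6* were higher in YAP5SA OE CMs. Relative to GFP, the log2 fold changes were 1.51 for *Myl9* (SE 0.22, edgeR quasi-likelihood FDR 0.0019), 1.61 for *Myl12a* (SE 0.19, FDR 0.000811) and 0.83 for *Myl6* (SE 0.17, FDR 0.0079). That of *Myl12b* was 2.32 (SE 0.55, FDR 0.0159), for a gene below the filter in GFP, and with no filter it was 2.33 (FDR 0.000151, with 0.000150 to 0.0200 over the 8 alternative fits that could test it). The difference between these light chains was not tested.

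Of the kinases, *Rock2* rose in YAP5SA OE CMs, by 0.78 on the log2 scale (SE 0.21, edgeR quasi-likelihood FDR 0.0275). For *Rock1* the value was -0.24 (interval -0.67 to 0.19), with 0.11 in batch 1 and -0.61 in batch 2, so the batches pointed in opposite directions. *Mylk* had -0.22 (interval -0.80 to 0.37). The ratio of *Rock2* to *Rock1* per kilobase was 1.04 and 0.92 in GFP, 1.70 and 1.07 in YAP6SA, and 1.40 and 2.75 in YAP5SA, which overlapped between the variants.

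Fewer genes were called over the whole series, and several calls of the set in YAP5SA were lost, without GFP replicate 2. Without it 3 genes were past the threshold (*Myh9*, *Myl9* and *Myl12a*), and these 3 were also called under all 9 other fits and with any other library left out. The calls of *Myh14* (-0.59, FDR 0.187), *Myl12b* (1.66, FDR 0.205), *Myl6* (0.75, FDR 0.140) and *Rock2* (0.81, FDR 0.149) were then lost, and the values of *Myl6* and *Rock2* stayed close to those with all libraries. Without YAP5SA replicate 2, *Rock2* (0.42, FDR 0.139) and *Myl12b* (1.82, FDR 0.0773) were lost. Without YAP5SA replicate 1, *Rock1* was called lower (-0.59, FDR 0.0070). *Rock2* was also lost without GFP replicate 1 (0.76, FDR 0.0987).

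Markers of other cells in these libraries are given beside the calls. In YAP6SA OE CMs none of 8 fibroblast, 8 endothelial, 7 macrophage, 7 pericyte and 5 epicardial markers was called, where 0.0450% of all genes were. Of them 8, 6, 7, 7 and 4 had a log2 fold change over 0, as did 6697 of all 13323 genes. By the edgeR quasi-likelihood unadjusted p, 3, 0, 1, 1 and 0 were under 0.05, against 5.93% of all genes. The pericyte one was *Rgs5* (0.85, FDR 0.504). The smooth muscle heavy chain gene *Myh11* rose in YAP5SA OE CMs (log2 fold change 1.00, edgeR quasi-likelihood FDR 0.0274), and of the 5 smooth muscle markers tested 3 were higher and 2 were lower. *Cnn1*, 1 of the 3, entered the fit only through the variants, where it was high. Of 8 fibroblast and 8 endothelial markers none was called in YAP5SA OE CMs. By the edgeR quasi-likelihood unadjusted p, 3 and 0 of them were under 0.05, against 36.4% of all genes. Higher were 2 of 7 macrophage markers and 2 of 5 epicardial markers, and lower were 1 of 7 pericyte markers and 2 of 8 CM markers. Over all genes tested 12.8% were higher and 9.18% were lower, and counts this small do not set a cell type apart from that background. The epicardial sum over 5 genes was 41.0 and 31.8 CPM in GFP, 57.7 and 31.8 CPM in YAP6SA, and 126 and 189 CPM in YAP5SA. *Wt1* alone made 92.9 and 155 CPM of the YAP5SA sums. The other 4 genes summed to 27.2 and 18.2 CPM in GFP and 33.1 and 34.4 CPM in YAP5SA. Their log2 fold changes were 0.03 for *Msln*, 0.19 for *Upk1b*, 0.73 for *Upk3b* (edgeR quasi-likelihood FDR 0.174) and 2.21 for *Krt19* (FDR 0.0291). *Krt19* was at 2.31 and 1.63 CPM in GFP and 4.90 and 13.3 CPM in YAP5SA, and it passed the filter in the variants but not in GFP. The part of these cells in the changes of the myosin genes was not tested.

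The third comparison set the variants against each other, which differ in the change that weakens TEAD binding. Of the 10 genes, 3 differed between YAP5SA and YAP6SA OE CMs (edgeR quasi-likelihood FDR under 0.05), whereas 14.7% of all genes tested did. By the unadjusted p, 4 of the 10 were under 0.05, against 30.8% of all genes. The median log2 difference was 0.02 over the 10 genes and -0.01 over all genes tested. By libraries that do not overlap, 4 were higher, against 28.6% of all genes, and 1 was lower, against 28.9%.

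*Myh9* was higher in YAP5SA than in YAP6SA by 1.19 on the log2 scale (SE 0.18, edgeR quasi-likelihood FDR 0.0030), and *Myl12a* by 0.91 (SE 0.19, FDR 0.0130). *Myh14* was lower, with a log2 difference of -0.64 (SE 0.17, FDR 0.0340). The variants did not separate at *Myl9*, where the log2 difference was -0.39 with an interval of -0.86 to 0.09, or at *Myl6*, where it was -0.07 with an interval of -0.44 to 0.30. A missed threshold does not show that they act alike. For *Rock2* the log2 difference was 0.60 (interval 0.13 to 1.07, FDR 0.0896), and for *Myl12b* it was 0.95 (interval -0.16 to 2.07). Without YAP6SA replicate 2, none of the 10 genes was past the threshold by the edgeR quasi-likelihood test, and *Myh9* had a log2 difference of 1.11 (FDR 0.0654).

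**Figure D3:**
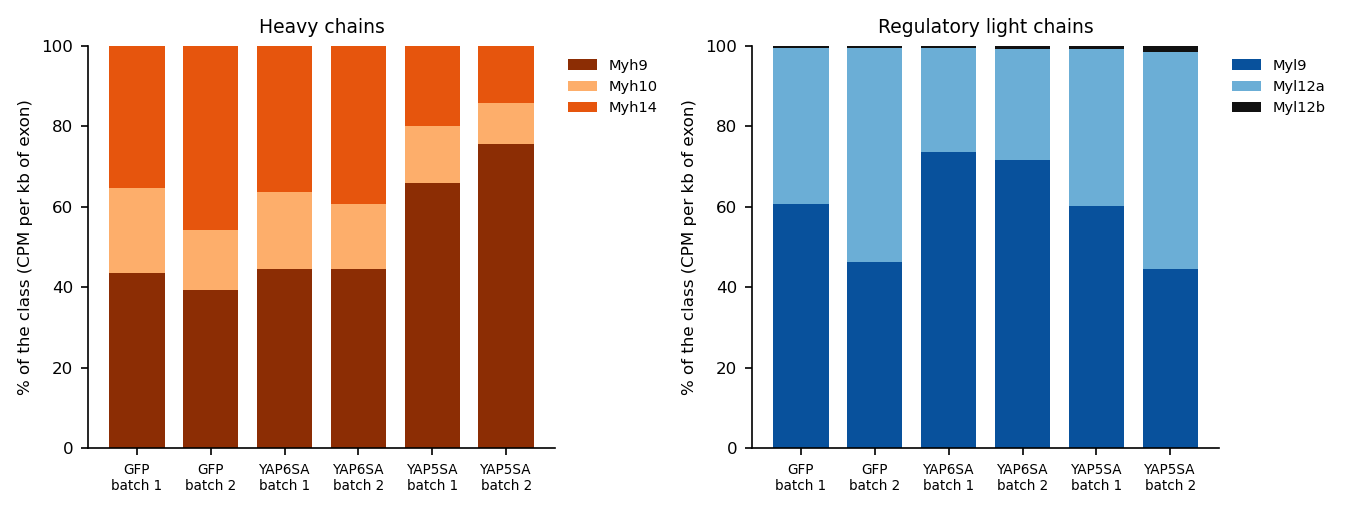
Share of each gene in the summed CPM per kilobase of exon of the heavy chains (left) and of the regulatory light chains (right), 1 bar per library, each adding up to 100%. *Myh9* makes 65.8% and 75.6% of the heavy chain sum in the YAP5SA libraries and 39.4% to 44.6% in the other 4, and *Myl9* makes its largest share of the regulatory light chains in the YAP6SA libraries.

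The makeup of the motor's transcripts was compared per kilobase of exon, as the plot of shares by library shows. *Myh9* made 41.5 ± 2.99% (SD, n = 2) of the heavy chain sum in GFP, 44.6 ± 0.02% in YAP6SA and 70.7 ± 6.92% in YAP5SA. *Myh14* made 40.6 ± 7.47%, 37.9 ± 2.15% and 17.2 ± 3.97%, and *Myh10* 17.9 ± 4.47%, 17.5 ± 2.12% and 12.2 ± 2.96% of it. The shares of *Myh9* and *Myh14* overlapped in GFP, and *Myh9* was above *Myh14* in both libraries of YAP6SA and, by far more, of YAP5SA. With 2 libraries against 2, an exact permutation test cannot go below p = 0.33 (two-sided), so these shares are given as values. They rest on 5139 to 10633 counts per library.

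Among the regulatory light chains, *Myl9* made 53.4 ± 10.3% in GFP, 72.6 ± 1.34% in YAP6SA and 52.2 ± 11.1% in YAP5SA. *Myl12a* made 45.9 ± 10.3%, 26.8 ± 1.17% and 46.6 ± 10.5%, and *Myl12b* 0.63 ± 0.02%, 0.65 ± 0.17% and 1.18 ± 0.52%. For *Myl9* and *Myl12a* the shares in GFP and YAP5SA overlapped, and both YAP6SA libraries lay outside them. The share of *Myl12b*, at most 1.55% in any library, was higher in both YAP5SA libraries than in the other 4. Since *Myl12a* loses reads to the overlaps named above, and the share depends on the length used, it is an estimate (*Myl9* in YAP6SA was 67.9% when only exon bases free of overlap were counted as length).

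Heavy and light chains did not move in step. The heavy chain sum was 32.2 ± 2.09 CPM per kb in GFP, 30.7 ± 2.05 in YAP6SA and 44.3 ± 8.44 in YAP5SA, and the regulatory light chain sum was 49.6 ± 21.5, 131 ± 18.2 and 142 ± 8.32 CPM per kb. The ratio of the regulatory light chain sum to the heavy chain sum was 2.11 and 1.02 in GFP, 4.94 and 3.69 in YAP6SA, and 3.86 and 2.71 in YAP5SA. Both variants were above GFP, and they overlapped each other. The ratio of *Myl6* to the heavy chain sum was 4.51 and 2.99 in GFP, 8.54 and 6.11 in YAP6SA, and 5.96 and 3.87 in YAP5SA, where only the YAP6SA libraries were clear of GFP.

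Against the sarcomeric heavy chains, the nonmuscle ones were scarce. *Myh6*, the main heavy chain of the postnatal mouse ventricle, had a log2 fold change of -0.25 in YAP6SA (SE 0.35, edgeR quasi-likelihood FDR 0.947) and of -1.04 in YAP5SA OE CMs (SE 0.35, FDR 0.0625), and *Myh7* had 0.03 (FDR 0.991) and -0.47 (FDR 0.128). Neither was past the threshold. The nonmuscle heavy chain sum per kilobase equalled 1.12% and 0.79% of the *Myh6* and *Myh7* sum in GFP, 1.16% and 0.95% in YAP6SA, and 1.90% and 3.71% in YAP5SA. The YAP5SA libraries were the highest, while their sarcomeric sum was the lowest, at 2016 and 1352 CPM per kb against 2739 and 4281 in GFP. *Myl7*, an atrial regulatory light chain, rose in YAP5SA (0.72, SE 0.18, FDR 0.0189) and not measurably in YAP6SA OE CMs (0.11, interval -0.29 to 0.50). Of all 9 muscle myosin genes listed, none was called in YAP6SA, where 0.0450% of all genes were called. By the edgeR quasi-likelihood unadjusted p, 1 of the 9 was under 0.05, against 5.93% of all genes. In YAP5SA 3 were higher and 1 was lower, against 12.8% and 9.18% of all genes.

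**Figure D4:**
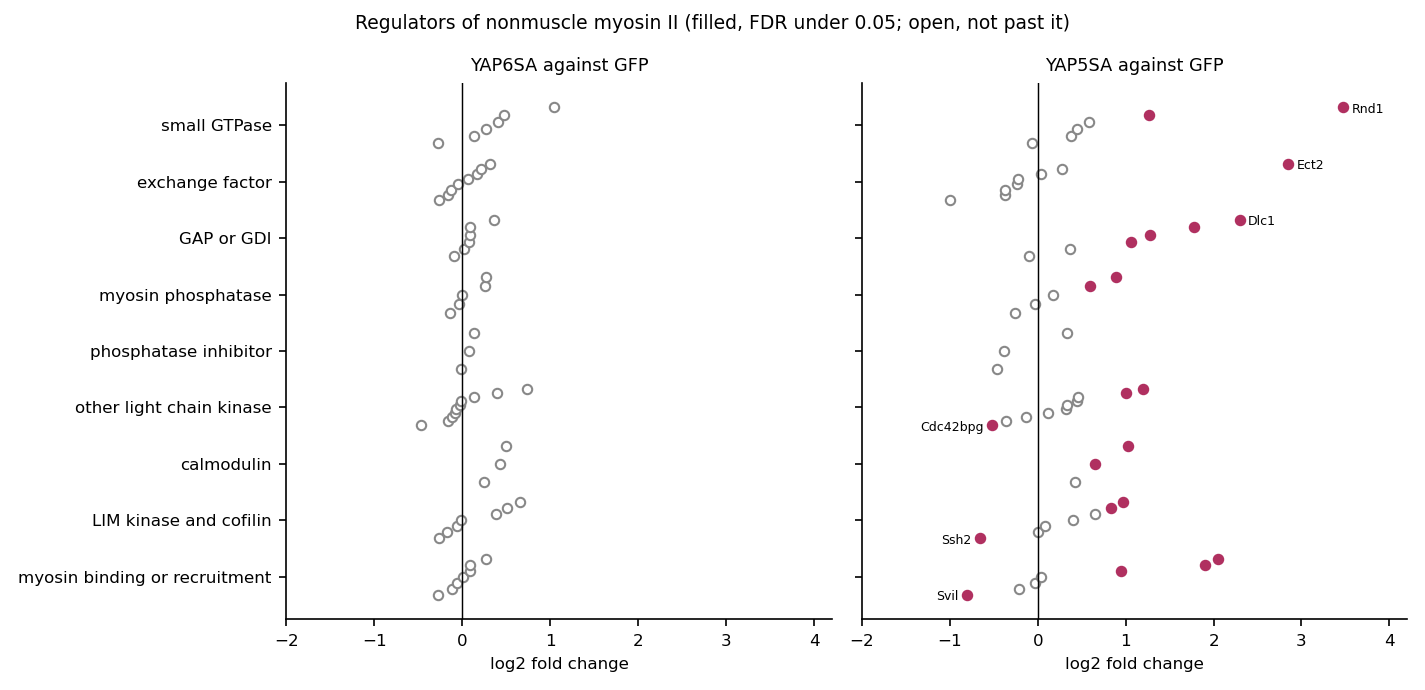
Log2 fold change (horizontal axis) of 55 regulators of nonmuscle myosin II by role, in YAP6SA (left) and YAP5SA (right) against GFP; filled points are past FDR 0.05, and the 3 largest in each direction are named. No point is filled for YAP6SA, and 18 higher and 3 lower ones are filled for YAP5SA.

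A list of 57 genes that act on the motor was examined beside it, of which 55 were tested, and the plot of regulators by role shows them. In YAP6SA OE CMs, 0 of 55 were past the threshold (edgeR quasi-likelihood test), against 0.0450% of all genes, and 7 had an unadjusted p under 0.05, against 5.93%. At that background a count of 0 does not set the list apart. DESeq2 and limma-voom also called 0. A fit of the 4 libraries compared called 3, where it called 276 of all 13323 genes. In YAP5SA OE CMs, 18 were higher and 3 were lower relative to GFP, against 12.8% and 9.18% of all genes, so that the lower ones were no larger a share than in the background. Between the variants 13 differed, against 14.7% of all genes. Without *Rnd1* and *Mylk2*, which did not pass the filter in every group, 17 of 53 were higher and 3 were lower in YAP5SA OE CMs. Between the variants 12 of these 53 differed, against 1714 of the 12055 genes that passed the filter in every group. The median log2 fold change over the list was 0.07 for YAP6SA and 0.33 for YAP5SA against GFP.

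*Rhoa*, a small GTPase that switches on ROCK1 and ROCK2, was at 17.2 and 18.5 CPM in GFP, 24.2 and 25.5 CPM in YAP6SA, and 24.9 and 28.8 CPM in YAP5SA. Both variants were above GFP in both batches, and neither was past the threshold, with log2 fold changes of 0.48 (SE 0.19, edgeR quasi-likelihood FDR 0.804) and 0.59 (SE 0.19, FDR 0.0567). *Rhoc* had 0.40 (FDR 0.709) and 0.37 (FDR 0.0976), and *Rhob* had 0.27 (FDR 0.865) and -0.06 (FDR 0.800). *Rnd1*, an atypical small GTPase that opposes RhoA, was rare in GFP, with 16 and 2 counts, and had 15 and 25 counts in YAP6SA and 59 and 152 in YAP5SA. It passed the filter only through YAP5SA, where it was high, so its log2 fold change of 3.47 against GFP (SE 0.75, FDR 0.0112) is a description.

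The exchange factor *Ect2*, which loads RhoA at the division plane, was at 27.5 and 21.0 CPM in GFP, 29.3 and 31.2 CPM in YAP6SA, and 152 and 200 CPM in YAP5SA. The YAP5SA libraries stood apart from the other 4, and the log2 fold change relative to GFP was 2.85 (SE 0.19, edgeR quasi-likelihood FDR 6.89e-05). *Dlc1*, a GTPase-activating protein that turns RhoA off, rose by 2.30 (SE 0.22, FDR 0.000302). Of its class, 4 of 6 genes were higher in YAP5SA OE CMs, against 12.8% of all genes. *Ect2* and *Dlc1* were also higher in YAP5SA than in YAP6SA, by 2.54 and 2.21 on the log2 scale (FDR 0.000134 and 0.000449). The difference at *Rnd1* was 2.43, for a gene that passed the filter only through YAP5SA, where it was high. *Akap13*, another exchange factor, had a log2 difference of -0.59 between YAP5SA and YAP6SA and was past the threshold (FDR 0.0311).

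Of the myosin phosphatase, 2 of 5 genes were higher in YAP5SA OE CMs. Its catalytic subunit *Ppp1cb* rose by 0.60 (SE 0.17, edgeR quasi-likelihood FDR 0.0363), and its targeting subunit *Ppp1r12a* had 0.18 (interval -0.21 to 0.57). *Mylk3*, the light chain kinase of CMs that acts on the sarcomeric light chain, had 0.40 in YAP6SA (FDR 0.854) and 0.46 in YAP5SA OE CMs (FDR 0.151). Of the 3 calmodulin genes, 2 were higher in YAP5SA OE CMs, and of the other light chain kinases 2 of 10 were higher and 1 was lower. With 12.8% of all genes higher and 9.18% lower, the counts of the light chain kinases were near the background.

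The 3 regulators that fell in YAP5SA OE CMs were *Svil*, which encodes the myosin- and actin-binding supervillin (-0.80, SE 0.23, edgeR quasi-likelihood FDR 0.0364), *Ssh2*, a cofilin phosphatase (-0.66, SE 0.16, FDR 0.0176), and *Cdc42bpg*, a light chain kinase of the MRCK family (-0.52, SE 0.16, FDR 0.0401). *Svil* is abundant in these nuclei, at 921 and 1152 CPM in GFP and 736 and 468 CPM in YAP5SA. *Ssh2* was lower in YAP5SA than in YAP6SA as well (-0.64, FDR 0.0261).

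The genes whose log2 CPM over the 6 libraries ran most like that of *Myh9* were *Samhd1*, *Ddb1*, *Itga10*, *Prx* and *Jam2*, with Pearson r of 0.997 to 0.999. *Jam2*, a junctional adhesion molecule, was at 43.8 and 50.7 CPM in GFP, 47.0 and 58.4 CPM in YAP6SA, and 189 and 383 CPM in YAP5SA. Those most like *Myl9* were *Sumo2*, *Ssbp4*, *Ap3s1*, *Sod3* and *Srsf2*, with r of 0.983 to 0.995. *Srsf2*, a splicing factor, was at 210 and 180 CPM in GFP, 286 and 276 CPM in YAP6SA, and 269 and 235 CPM in YAP5SA. These are descriptions of 6 libraries that share their groups and batches.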

How the data were processed

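The data are RNA-seq of CM nuclei, enriched by PCM-1, in 6 libraries (2 each for GFP, YAP6SA and YAP5SA). The authors mapped the reads with STAR (mm10, Ensembl 94) and deposited raw read counts per gene without normalization or filter. All table columns were used. Rows for unmapped, multimapping, ambiguous and unassigned reads were left out of library sizes and tests (ambiguous reads were 5.79% to 6.31% of a library, reads that met no annotated exon 9.43% to 9.84%).

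Genes with a median log2 CPM over 1 in at least 1 group were kept (13323 of 54532), after the study's methods. The main fit used the quasi-likelihood test of edgeR 4.0.16 in R 4.3.3, TMM scaling and a model of batch plus group over the 6 libraries. FDR denotes p-values adjusted by Benjamini-Hochberg over the kept genes, and the threshold was 0.05. The replicate number equals the batch that the labels give each library, which pairs the libraries, and the deviations of libraries of 1 batch from their group means correlated across genes with 0.336, 0.0942 and 0.170 for the 3 pairs of groups. Within each group, neither library was a copy of the other (chi-square per degree of freedom between replicates 30.9 to 49.4). The fit was tested on simulated counts with known changes.

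Levels between genes were divided by the length of all exons (GENCODE M21, GRCm38), and overlapping or shared sequence was found from the annotation and with 100-base words. Promoters came from RefSeq (GRCm38.p6), and were searched on both strands for the CArG box and the TEAD motif. Alternatives were scaling by RLE or by the upper quartile, a looser filter (none) and a stricter one (10 counts in each library), a likelihood ratio test, DESeq2 1.42.0, limma-voom (limma 3.58.1), no batch term, the 4 libraries compared, thresholds of 0.01 and 0.1, and each library left out. Summing *Myl12a* and *Myl12b* and a length free of overlap were added after seeing the data.

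The members and the lists were chosen with earlier results of these data known. All members are named. Of the regulators, named genes are the 3 with the largest change in each direction in each comparison among those past the threshold and changed the same way in both batches, with *Rhoa*, *Rhob*, *Rhoc*, *Ppp1r12a*, *Ppp1cb* and *Mylk3*. Of the muscle myosins, *Myh6*, *Myh7*, *Myh11* and *Myl7* are named, and for *Myh9* and *Myl9* the 5 genes most correlated with each.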

Additional observations from a re-analysis of the deposited data

How the results depend on the processing

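Over 9 other fits, no log2 fold change of the 10 genes changed sign. For YAP6SA against GFP, where 1 of the 10 genes, 0 regulators and 6 genes in all were past the threshold, there were 3, 1 and 145 with no filter, 2, 1 and 82 with the likelihood ratio test, 2, 0 and 55 with DESeq2, 0, 0 and 0 without the replicate block, 3, 3 and 276 with the 4 libraries compared, and 0, 0 and 2 at a threshold of 0.01. For YAP5SA against GFP (7, 21 and 2931), a threshold of 0.01 gave 4, 10 and 1117. For YAP5SA against YAP6SA (3, 13 and 1956), it gave 1, 7 and 660, a threshold of 0.1 gave 3039 genes in all, and no replicate block gave 2, 10 and 1152, with *Myh14* lost (FDR 0.0720). The fit without the block changed no other call of the 10 genes than those of *Myl9* in YAP6SA and of *Myh14* here. With each library left out in turn, the counts of the 10 genes, regulators and all genes ran from 0 to 3, 0 to 2 and 6 to 213 for YAP6SA against GFP, from 3 to 8, 7 to 32 and 738 to 4863 for YAP5SA against GFP (lowest without GFP replicate 2, highest without YAP5SA replicate 1), and from 0 to 4, 5 to 26 and 396 to 4160 between the variants (lowest without YAP6SA replicate 2). The lone library of a group was then assumed to vary like the others.

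Leaving out a library in turn changed the sign of 15 log2 fold changes, none of them past the threshold without that library. For YAP6SA against GFP the ranges were -0.15 to 0.23 for *Myh9*, -0.22 to 0.051 for *Myh10*, -0.37 to 0.058 for *Myh14*, -0.22 to 0.53 for *Rock2* and -0.25 to 0.055 for *Mylk*. For YAP5SA against GFP they were -0.24 to 0.040 for *Myh10* and -0.59 to 0.11 for *Rock1*, and between the variants -0.28 to 0.034 for *Mylk*, -0.28 to 0.42 for *Rock1*, -0.089 to 0.056 for *Myh10* and -0.14 to 0.026 for *Myl6*. For GFP, YAP6SA and YAP5SA, the share of *Myh9* was 50.9%, 54.0% and 77.5% with the longest transcript as length, 52.6%, 55.6% and 78.3% without a length, and 41.4%, 44.4% and 70.6% with exons free of overlap. That of *Myl9* was 40.9%, 61.3% and 39.8%, then 28.9%, 47.9% and 28.0%, and then 48.0%, 67.9% and 46.8%. The order of the groups was kept in each. The depth limits *Myl12b*, which could not be tested where 10 counts were asked of every library. The cause of these moves was not tested.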

Other observations

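Within the list of regulators, the genes that act with *Ect2* at the division plane were looked at after their values were seen. In YAP5SA OE CMs against GFP, *Racgap1*, the partner of *Ect2* in the centralspindlin complex, had a log2 fold change of 1.78 (edgeR quasi-likelihood FDR 0.000746), *Anln*, the contractile ring scaffold anillin, 2.05 (FDR 0.000769), and *Cit*, the citron kinase of the midbody, 1.19 (FDR 0.0102). In YAP6SA OE CMs the same genes had 0.09, 0.08 and -0.07, with 0.31 for *Ect2*, and none was past the threshold. All 4 were also higher in YAP5SA than in YAP6SA OE CMs, with FDR from 0.000134 to 0.0110. Of another role and looked at in the same way, *Mylk4*, a kinase of the light chain kinase family, had 1.01 (FDR 0.0021) and 0.74 (FDR 0.225).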
